A study of Mus musculus with 3 samples.

Results

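Immediate early genes are the genes that neurons switch on first after stimulation, and the accessible chromatin around 10 of them was described in dopaminergic neurons (DNs) of the mouse midbrain. The genes were *Fos*, *Fosb*, *Junb*, *Egr1*, *Egr2*, *Egr3*, *Egr4*, *Arc*, *Npas4* and *Nr4a1*, 10 of 21755 protein-coding genes of the GENCODE M21 annotation on the autosomes and the X chromosome. A peak was counted for a gene when it overlapped the annotated gene body, or the 50 kb on either side, by at least 1 bp, which gave 135 of 55326 accessible peaks. A promoter peak had its centre within 1 kb of a transcription start site (TSS) of the gene in the basic annotation, and every other peak was called distal. By this rule 18 of the 135 peaks were promoter peaks and 117 were distal. The rule uses only the positions of genes and peaks.

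The study mapped chromatin folding in mouse brain cells and embryonic stem cells, and accessibility served to annotate it. DN accessibility came from single-nucleus ATAC-seq, in which a transposase cuts open chromatin in isolated nuclei, of the ventral tegmental area (VTA) of male C57Bl/6Nl mice with no treatment named. There were 2 DN libraries, replicate 1 from mice aged 7 weeks and replicate 2 from mice aged 9 weeks, and the DN cluster was chosen by the authors through the accessibility of marker genes such as *Th*. Both libraries were pooled in 1 list of positions without a height, a score or a count per peak, so no value below has a spread between replicates and no difference was tested.

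When a neuron fires, calcium entry and kinase signalling reach factors that already sit on immediate early genes, so transcription needs no new protein. The best known are serum response factor (SRF), which binds the CArG box with its Elk and myocardin-related partners, CREB, which binds the cAMP response element (CRE), and the MEF2 factors. Most immediate early genes encode transcription factors that act on later genes, while *Arc* encodes a protein of the synapse that helps remove AMPA receptors from the membrane.

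Several short motifs recurred at these genes, and CArG boxes are shown first because they are the sites of SRF. A CArG box is 2 C bases and 2 G bases with a run of A or T between them. Boxes found in promoter peaks of 5 of the genes follow, each with 10 bases on either side, on the strand of the gene in GRCm38 (mm10) and with the box in capitals. The first bases of the *Fos* line lie just outside its peak. In these and all later positions the TSS counts as 0, and the outermost TSS of the gene in the basic annotation is used unless another is named.
Fos, chr12:85473571-85473600, plus strand: cacaggatgtCCATATTAGGacatctgcgt
Fosb, chr7:19310298-19310327, minus strand: tggccgagctCCTTATATGGctaattgcgt
Egr2, upstream box, chr10:67537484-67537513, plus strand: cggatcttctCCTTTTTTGGaaagtctcgg
Egr2, downstream box, chr10:67537787-67537816, plus strand: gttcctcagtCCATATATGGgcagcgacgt
Arc, chr15:74673484-74673513, minus strand: gagccccattCCTTATATGGcatcttgctt
Npas4, chr19:4990912-4990941, minus strand: ggattcctgtCCTAATATGGagctgggatt

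The same box stood in distal peaks of several of these genes, and 6 of those are shown because they lay nearest to the gene or, at *Fos*, beside other motifs.
Junb, distal peak upstream, chr8:84980149-84980178, minus strand: cttcctgtgcCCTAATATGGgtgctgggga
Junb, distal peak in the gene body, chr8:84976614-84976643, minus strand: gaagctctgcCCATATATGGgcctattcag
Fos, distal peak downstream, chr12:85486104-85486133, plus strand: tccgttctgcCCATATTTGGaaaggcgccg
Arc, distal peak upstream, chr15:74679276-74679305, minus strand: cagcctctctCCTTTTATGGtgccggaagc
Npas4, distal peak upstream, chr19:4994061-4994090, minus strand: tatcagctccCCAAATATGGagtgatagaa
Egr3, distal peak upstream, chr14:70074861-70074890, plus strand: ctgtgcggttCCTTTAAAGGctgcgggttc

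All 10 genes had a promoter peak, beside 56.4% of all protein-coding genes and 39.9% of those between 1 and 10 kb long, the range that holds 9 of the 10 (*Nr4a1* is longer). *Fos*, *Egr2*, *Egr3* and *Egr4* had 1 promoter peak each, *Fosb*, *Junb*, *Arc*, *Npas4* and *Nr4a1* had 2 each, and *Egr1* had 4. At least 2 promoter peaks were thus present at 6 of 10 genes, beside 21.3% of all protein-coding genes. At least 3 were present at 1 of 10, beside 4.87%. Those shares include genes without a promoter peak. Of the 12272 protein-coding genes with a promoter peak, 4624 had at least 2 and 1060 at least 3. A peak covered an annotated TSS at 8 of the 10 genes, beside 50.0% of all protein-coding genes. The only promoter peak of *Egr3* lay wholly upstream of the start sites, with its centre 344 bp from the outermost one. Of the promoter peaks of *Fosb*, one lay wholly upstream, with its centre 287 bp from the outermost TSS, and the other downstream of every start site.

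In the gene and the 50 kb on either side, *Egr3* had 4 peaks, *Egr2* 6, *Fos* 9, *Arc* 10, *Nr4a1* 10, *Egr4* 13, *Npas4* 17, *Egr1* 18, *Fosb* 20 and *Junb* 28. The median of 11.5 peaks stood beside a median of 4 over all protein-coding genes and of 8 over genes of 1 to 10 kb that also had a promoter peak. At least 10 peaks were found at 7 of 10 genes, beside 23.8% of all protein-coding genes. Gene-rich surroundings add to such counts, because peaks at start sites of neighbours fall in the same windows. *Fos* had no protein-coding neighbour with a TSS in its window, *Egr1*, *Egr2*, *Egr3* and *Egr4* had 1 each, *Nr4a1* 3, *Arc* 4, *Fosb* and *Npas4* 5 each and *Junb* 9. Among genes with the same number of such neighbours, *Egr1* stood at percentile 96.8, *Egr4* at 93.2, *Fosb* at 89.7, *Fos* at 89.2, *Junb* at 88.9, *Npas4* at 83.6, *Nr4a1* at 77.3, *Egr2* at 73.6, *Arc* at 71.3 and *Egr3* at 56.8. All 10 genes thus stood above the middle of genes with as many neighbours, with *Egr3* the lowest. The genes ranked include those without a promoter peak, which all 10 had. *Egr2* and *Egr3* lay below the median of 8 over genes of 1 to 10 kb with a promoter peak.

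**Figure D1:**
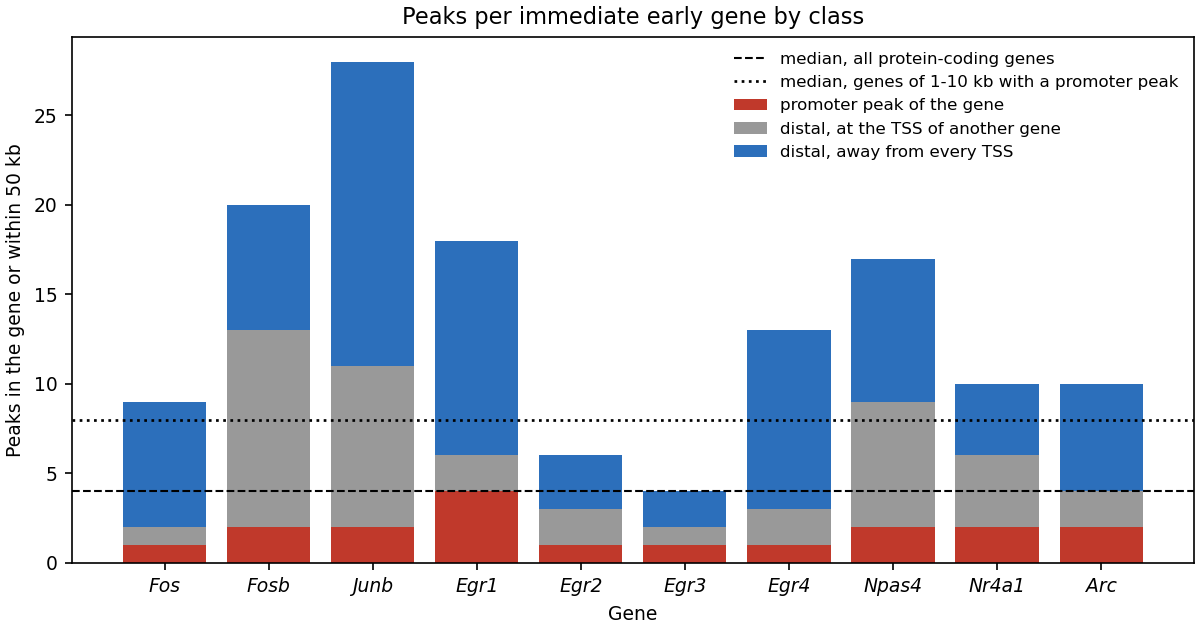
Peaks in the gene or within 50 kb (y axis, number of peaks) for each of the 10 genes (x axis), stacked by class, with dashed and dotted lines at the medians of all protein-coding genes (4) and of genes of 1 to 10 kb with a promoter peak (8). *Junb* (28) and *Fosb* (20) are the tallest bars, and *Egr2* (6) and *Egr3* (4) are the bars below the dotted line.

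Of the 117 distal peaks, 41 were centred at the start of another gene, at a distance of at most 1 kb, and 76 lay away from every TSS of the basic annotation. The 41 were mostly those of *Fosb* (11), *Junb* (9) and *Npas4* (7), where they fell on genes such as *Ercc1*, which encodes a DNA repair nuclease subunit, *Hook2*, *Mast1* and *Peli3*. The 76 were made up of 17 at *Junb*, 12 at *Egr1*, 10 at *Egr4*, 8 at *Npas4*, 7 each at *Fos* and *Fosb*, 6 at *Arc*, 4 at *Nr4a1*, 3 at *Egr2* and 2 at *Egr3*. At least 5 such peaks were found at 7 of 10 genes, beside 27.5% of all protein-coding genes. Of the 76, 37 lay upstream of the gene, 31 downstream and 8 in the gene body. These positions use the comprehensive gene bodies. By the basic annotation at their centre, 43 were intergenic, 3 of them inside a comprehensive gene body, 17 were intronic and 16 exonic. Most of the intronic ones, and most of the exonic ones, lay in neighbours such as *Mast1* and *Slc29a2*.

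**Figure D2:**
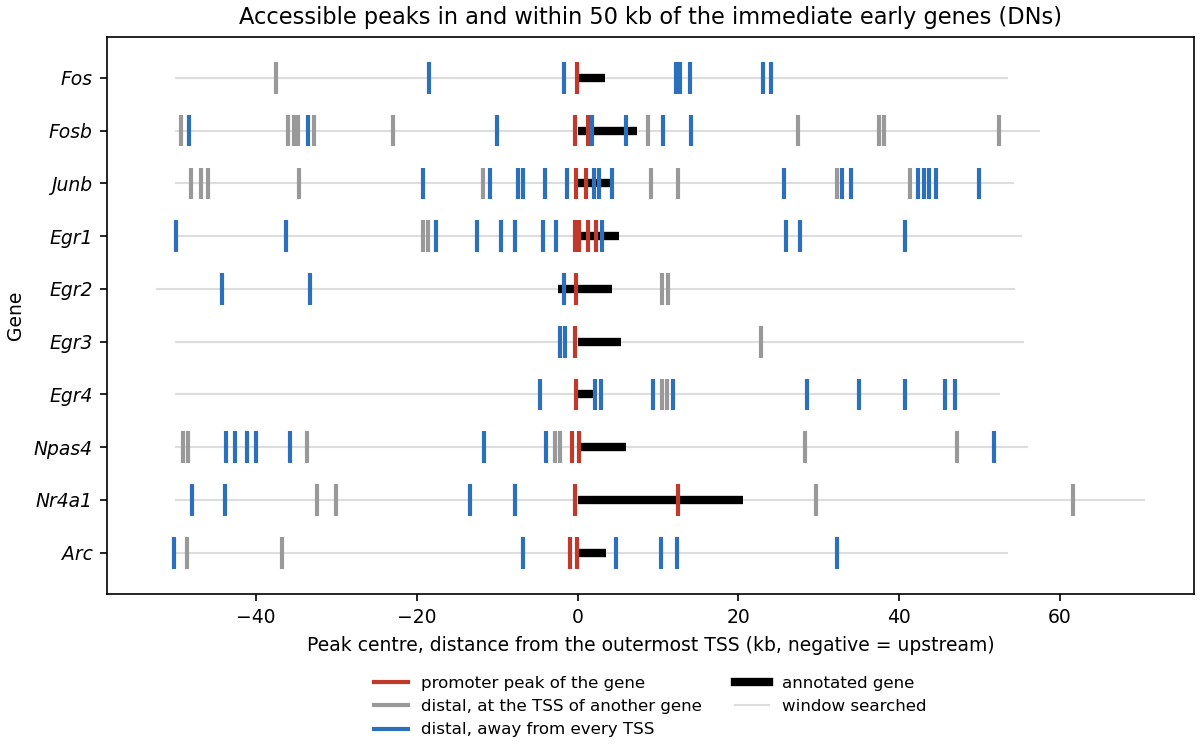
Position of the centre of every peak (vertical ticks, distance from the outermost TSS in kb on the x axis, negative values upstream) at the 10 genes (rows), coloured by class, with the annotated gene as a black bar and the window searched as a grey line. *Egr1* and *Npas4* carry most of their distal peaks upstream (10 of 14 and 12 of 15), and *Egr4* carries 10 of 12 downstream.

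*Fos*, *Fosb* and *Junb* encode subunits of AP-1, a dimer of Fos and Jun proteins, and they differed in how their peaks were laid out. *Fos* (chr12:85473890-85477273, plus strand) had 1 promoter peak centred 65 bp upstream of the TSS, covering 5.50% of the gene body, and no other peak in the gene. A peak followed at -1.65 kb and another at -18.48 kb, and 3 downstream peaks lay close together at 12.19, 12.80 and 14.01 kb, followed by 2 at 23.01 and 24.11 kb. The *Fos* promoter is shown because both motifs best known for its induction stood in the peak, a CArG box at -309 to -300 and the CRE core TGACGT at -66 to -61, both in capitals.
Fos promoter, chr12:85473575-85473874, plus strand: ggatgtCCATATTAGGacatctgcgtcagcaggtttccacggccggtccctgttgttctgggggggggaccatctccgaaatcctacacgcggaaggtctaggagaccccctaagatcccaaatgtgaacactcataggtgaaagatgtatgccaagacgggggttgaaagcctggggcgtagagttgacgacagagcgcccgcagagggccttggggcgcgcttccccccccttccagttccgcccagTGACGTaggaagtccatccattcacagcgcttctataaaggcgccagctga

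The *Fos* peak at 12.19 kb downstream held the same pair of motifs and an EGR motif, GCGNGGGCG, in a stretch of 131 bases, and the peak at -18.48 kb held 3 CRE cores. In the stretch below, capitals mark from left to right the CRE core, the CArG box and the EGR motif, the last read on the opposite strand.
Fos downstream peak, chr12:85486075-85486205, plus strand: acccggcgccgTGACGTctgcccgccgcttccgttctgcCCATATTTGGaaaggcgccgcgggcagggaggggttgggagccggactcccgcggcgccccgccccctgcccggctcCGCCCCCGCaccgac

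*Fosb* (chr7:19302696-19310051, minus strand) had promoter peaks centred at -0.29 and 1.34 kb and gene-body peaks at 1.85 and 6.07 kb, and peaks covered 20.4% of the gene. Its upstream promoter peak held an EGR motif at -376 to -368, a CRE core at -317 to -312 and a CArG box at -266 to -257. Of its 18 distal peaks, 11 lay at other start sites, so that 7 were left away from them. *Junb* (chr8:84974484-84978718, minus strand) had the highest share of its comprehensive gene body under peaks of the 10 genes, 42.6%, from 5 peaks. By the basic annotation, its peaks at 2.08 and 2.65 kb were intergenic. The peak at 4.29 kb lay in an exon of the neighbour *Prdx2*. Neither of its promoter peaks, at -0.15 and 0.99 kb, held any of the motifs searched, and its CArG boxes lay in the peaks at -1.31, 2.08 and -11.81 kb, the last at the start site of *Hook2*. The peak at -6.79 kb held 4 matches to the AP-1 motif TGACTCA, the most in any peak of these genes, and 3 of them fell in the stretch shown here in capitals.
Junb upstream peak, chr8:84985638-84985760, minus strand: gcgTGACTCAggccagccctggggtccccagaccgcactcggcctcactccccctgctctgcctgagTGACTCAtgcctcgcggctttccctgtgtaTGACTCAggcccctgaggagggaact

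*Egr1*, *Egr2*, *Egr3* and *Egr4* encode zinc finger factors that bind the same GC-rich motif. *Egr2* (chr10:67535475-67542188, plus strand) had 6 peaks and *Egr3* (chr14:70077203-70082614, plus strand) had 4, the lowest counts of the 10 genes. At *Egr2* the promoter peak, centred at -0.14 kb, held both CArG boxes shown above and a CRE core at -56 to -51, and a peak at -1.72 kb lay upstream of the basic start sites but inside the annotated gene body. No peak overlapped the gene body of *Egr3*, which was the exception among the 10 genes, and 63.8% of all protein-coding genes had such a peak. Of its 4 peaks, 3 lay just upstream of the TSS, at -0.34, -1.51 and -2.21 kb. Its promoter peak held a CArG box and 2 CRE cores. The 2 peaks further upstream held 3 EGR motifs and another CArG box, which is the one shown above.

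*Egr1* (chr18:34859823-34864984, plus strand) had 18 peaks, 4 of them promoter peaks at -0.38, 0.12, 1.31 and 2.35 kb around 2 annotated start sites, and a gene-body peak at 3.03 kb. Together peaks covered 36.3% of the gene. The promoter peak at 1.31 kb held 2 CArG boxes, at -105 to -96 and -83 to -74 from the inner TSS, and 2 CRE cores, at -136 to -131 and -67 to -62. A row of 4 peaks at -9.51, -7.74, -4.31 and -2.72 kb lay in the intergenic stretch upstream, and a downstream peak at 27.69 kb held 2 EGR motifs.

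*Egr4* (chr6:85511121-85513589, minus strand), the shortest of the 10 genes, had 1 promoter peak at -0.18 kb and a peak at 2.11 kb, and 23.3% of the gene was covered. Its promoter peak held 2 CRE cores, at -178 to -173 and -110 to -105, and no CArG box. The only CArG box among its 13 peaks lay at 46.96 kb, in an exon of the chaperonin gene *Cct7*. Downstream of *Egr4*, 6 peaks between 10.55 and 40.76 kb lay at the start or inside of *Fbxo41*, and 2 more lay in *Cct7*.

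*Npas4* (chr19:4984355-4990316, minus strand) encodes a basic helix-loop-helix PAS factor that responds to calcium entry in neurons. It had 17 peaks, with promoter peaks at -0.64 and 0.20 kb. The upstream one held a CArG box at -615 to -606 and an EGR motif at -585 to -577, both in capitals in the stretch printed, and the downstream one 2 CRE cores.
Npas4 promoter, chr19:4990876-4990946, minus strand: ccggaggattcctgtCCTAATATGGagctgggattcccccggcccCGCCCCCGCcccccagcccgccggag

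Further CArG boxes of *Npas4* lay in the distal peaks at -3.93, -11.64 and 51.84 kb, so 4 of its 17 peaks held one, the most of any of the 10 genes. The peak at -2.82 kb, at the start of a noncoding gene, held 2 AP-1 motifs. *Arc* (chr15:74669083-74672570, minus strand) had 10 peaks. A promoter peak at -0.07 kb covered the TSS and held an EGR motif, and another at -0.91 kb held a CArG box. A distal peak at -6.76 kb, with no other peak between it and the promoter peaks, held a CArG box at -6725 to -6716. The stretch around it is printed because this is the nearest distal peak upstream of *Arc*, and the box is in capitals.
Arc upstream peak, chr15:74679210-74679370, minus strand: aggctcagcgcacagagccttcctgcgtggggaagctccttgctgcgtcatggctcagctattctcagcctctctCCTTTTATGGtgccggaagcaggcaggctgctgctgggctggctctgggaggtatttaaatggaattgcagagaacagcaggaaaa

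*Nr4a1* (chr15:101254269-101274795, plus strand), which encodes an orphan nuclear receptor, was the longest of the 10 genes and had 2.44% of its gene body under peaks. Its promoter peaks, at -0.27 and 12.55 kb, belonged to 2 separate start sites, and only the inner site was itself covered by a peak. *Nr4a1* was the only one of the 10 genes without a CArG box in any peak of its window, and the only one with a MEF2 site in a promoter peak. Such a site was thus present at 1 of 10 genes, beside 0.652% of protein-coding genes with a promoter peak, and at 3 of 21 other early response genes, 0 of 8 later genes and 2 of 17 regulators of the response. Both promoter peaks held a MEF2 site, at -195 to -186 from the outer TSS and at -265 to -256 from the inner TSS. In the stretch printed, capitals mark from left to right the MEF2 site, the CRE core read on the opposite strand and the EGR motif.
Nr4a1 promoter, chr15:101254059-101254244, plus strand: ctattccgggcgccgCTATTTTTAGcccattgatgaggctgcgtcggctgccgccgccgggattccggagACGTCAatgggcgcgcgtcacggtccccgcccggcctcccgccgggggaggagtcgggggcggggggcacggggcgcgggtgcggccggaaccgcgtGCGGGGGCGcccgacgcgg

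**Figure D3:**
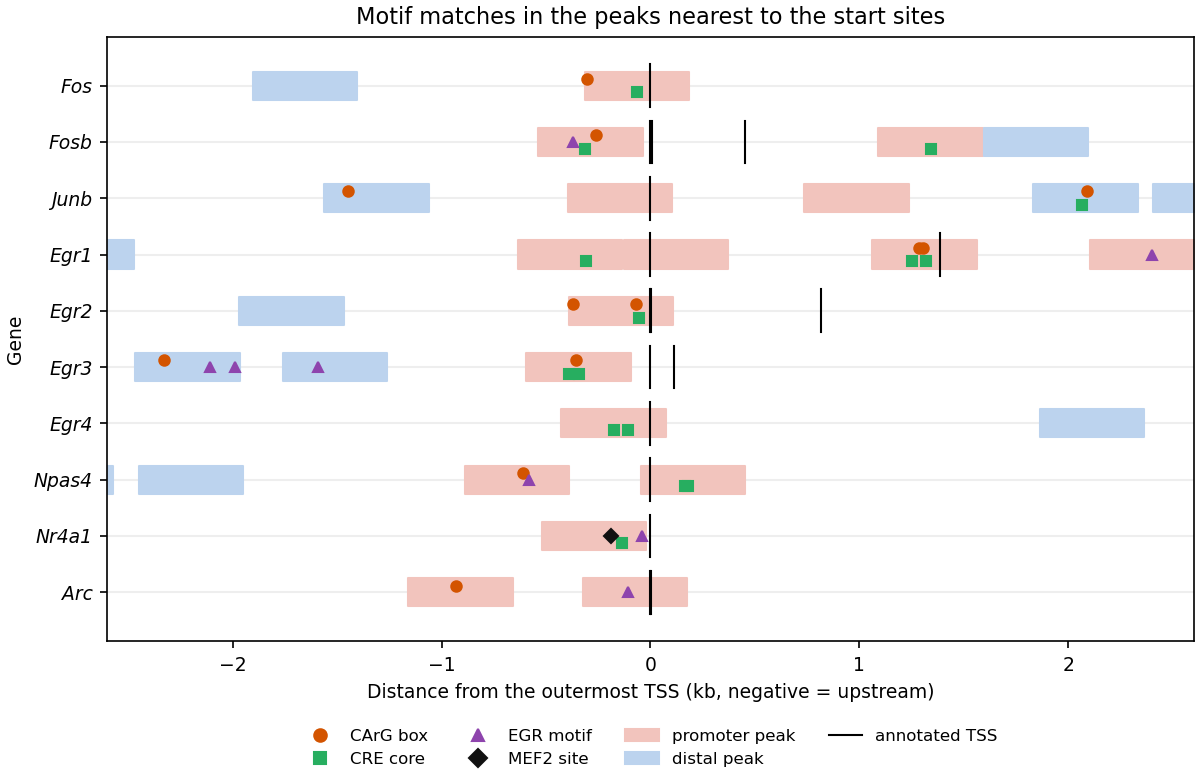
Peaks (shaded blocks, promoter and distal) and motif matches (symbols) along the 2.6 kb on either side of the outermost TSS (x axis, kb, negative values upstream) at the 10 genes (rows), with annotated start sites as vertical lines. CArG boxes appear in the promoter peaks of *Fos*, *Fosb*, *Egr1*, *Egr2*, *Egr3*, *Npas4* and *Arc*, and the inner promoter peak of *Nr4a1* at 12.55 kb is outside the range drawn.

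Motif matches were then counted over all these peaks, on both strands and beside the same counts over every peak in the list. The motifs were the CArG box, the CRE octamer TGACGTCA, its core TGACGT, the AP-1 motif TGACTCA, the MEF2 site (CTA and TAG around a run of A or T), the EGR motif GCGNGGGCG and the NBRE motif AAAGGTCA of Nr4a receptors. A CRE octamer always contains the core, and the other motifs do not contain one another. A match is a string of letters and was not measured as a bound site.

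CArG boxes stood in 7 of the 18 promoter peaks (38.9%), 1 at each of 7 genes, beside 1.68% of all peaks at a protein-coding TSS. Counted by gene, 7 of 10 had a CArG box in a promoter peak, beside 2.4% of the 12272 protein-coding genes with a promoter peak. In the whole window the count was 9 of 10, beside 14.9%, and the gene without one was *Nr4a1*. The windows of the 10 genes held more peaks to search, a median of 11.5 beside 7 for genes with a promoter peak. The part of this in the count was not tested. Among the 76 distal peaks away from start sites, 10 (13.2%) held a CArG box, beside 2.19% of all peaks away from a protein-coding TSS. Over all 135 peaks, 18 held a CArG box or a CRE octamer (13.3%), all of them a CArG box, beside 3.52% of all peaks.

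No CRE octamer was found in any of the 135 peaks, and 1.51% of all peaks held one. The core TGACGT was common at the promoters, with 10 of 18 promoter peaks (55.6%), beside 12.6% of peaks at a protein-coding TSS, and 8 of 10 genes, beside 18.7%. *Junb* and *Arc* were the genes without it. In distal peaks away from start sites the core stood in 8 of 76 (10.5%), beside 6.26%.

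EGR motifs stood in 6 of 18 promoter peaks (33.3%), beside 15.9% of peaks at a protein-coding TSS, at *Fosb*, *Egr1*, *Arc*, *Npas4* and *Nr4a1*. Away from start sites they stood in 9 of 76 distal peaks (11.8%), beside 1.46%. AP-1 motifs were in 0 of 18 promoter peaks, beside 4.71%, and in 5 of 76 distal peaks away from start sites, beside 9.44%. They were also in 4 of 41 distal peaks at the start of another gene (9.76%). Over all 135 peaks the count was 9 (6.67%), beside 8.01% of all peaks. The NBRE motif was in none of the 135 peaks, beside 4.01% of all peaks.

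Base composition at the promoters was close to that of other start sites, with a median GC content of 62.4% in the 18 promoter peaks and of 62.1% in all peaks at a protein-coding TSS. The 76 distal peaks were richer in GC than other peaks, with medians of 54.4% and 49.3%, and the part of this in their counts of the GC-rich EGR motif was not tested. In the RefSeq promoter windows, short windows around annotated starts on GRCm38.p6, 7 of the 10 symbols matched. A CArG box was present there at *Egr2*, which had several windows, some of them overlapping, and at no other of the 7. Over all 32851 windows the share was 1.63%, which counts windows and not genes. *Arc*, *Egr1* and *Egr3* had no entry. The boxes of *Fos*, *Fosb* and *Npas4* lie further upstream than these windows reach, as their positions above show.

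Other genes of the response were counted in the same way. Of 22 other early response genes, 21 had a promoter peak, and the exception was *Gadd45b*, which encodes a stress sensor. Their median was 7 peaks in the gene or within 50 kb, and *Per1* (37), *Fosl1* (20) and *Ier2* (20) had the most. All 8 later activity-regulated genes had a promoter peak, with a median of 4 peaks, and *Vgf* (10), *Nrn1* (9) and *Bdnf* (7) had the most. All 17 regulators of the response, such as *Srf*, *Creb1* and *Mef2c*, had one as well, with a median of 7 peaks, and *Crtc1* (24), *Mrtfa* (18) and *Mapk3* (15) had the most. The medians of these lists lay below the 11.5 of the 10 immediate early genes, which also had more protein-coding neighbours (a median of 2, beside 1, 0 and 1). Among genes with the same number of neighbours, the median percentile was 86.3 for the immediate early genes and 74.1 for the other early genes. It was 61.7 for the later genes and 73.6 for the regulators, and the ranges of the lists overlapped. The genes ranked include those without a promoter peak. At least 2 promoter peaks were present at 14 of the 22 other early genes, 5 of the 8 later genes and 10 of the 17 regulators. At least 3 were present at 6, 2 and 5 of them.

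By motif, the lists were set beside the immediate early genes as counts of genes with a match in a promoter peak. CArG boxes were present at 7 of 10 immediate early genes, as counted above, at 2 of 21 other early genes (*Dusp1* and *Sik1*), at 1 of 8 later genes (*Bdnf*) and at 3 of 17 regulators (*Arnt2*, *Ep300* and *Srf*). The CRE octamer was present at 0 of 10, 9 of 21, 3 of 8 and 0 of 17, beside 4.78% of protein-coding genes with a promoter peak. The octamer genes included *Nr4a2* and *Btg2* among the early genes and *Scg2*, *Vgf* and *Pcsk1* among the later ones. The core TGACGT was present at 8 of 10, 18 of 21, 5 of 8 and 7 of 17 genes. The EGR motif was present at 5 of 10, 8 of 21, 2 of 8 and 12 of 17, beside 22.0% of protein-coding genes with a promoter peak, so its share was highest at the regulators.

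**Figure D4:**
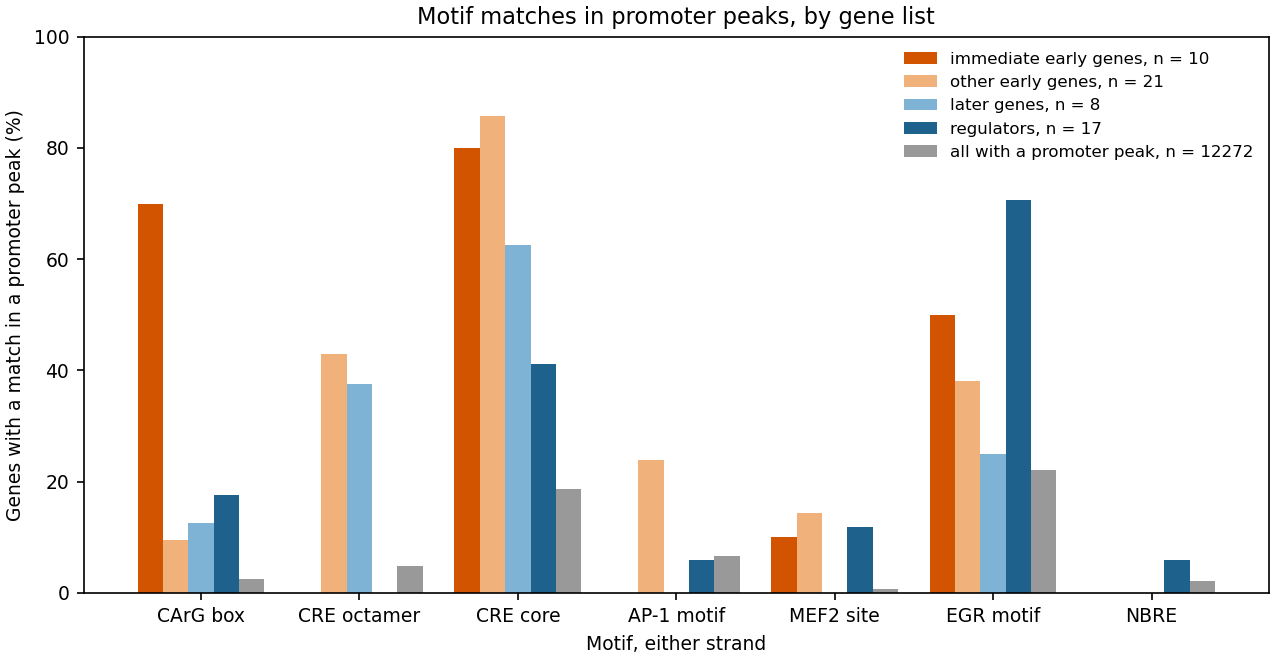
Share of genes (y axis, percent) with a match to each of 7 motifs (x axis) in a promoter peak, for the 10 immediate early genes, 21 other early genes, 8 later genes, 17 regulators and all 12272 protein-coding genes with a promoter peak (bars). The CArG box is at 70% in the immediate early genes and at 17.6% or less in the other groups, and the CRE octamer is at 0% in the immediate early genes and at 42.9% in the other early genes.

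The gene bodies were compared as the share covered by peaks. The median was 11.3% for the 10 genes, beside 0.992% for all protein-coding genes and 10.3% for genes of 1 to 10 kb with a promoter peak. With the gene body taken from the basic transcripts alone, the median of the 10 genes was 6.56%, beside 10.1% for the same short genes with a promoter peak, so which median was higher depended on the definition of the gene body. At least 20% was covered at 4 of the 9 genes of 1 to 10 kb (*Fosb*, *Junb*, *Egr1* and *Egr4*), beside 11.6% of all genes of that length and 27.9% of those with a promoter peak, and not at *Nr4a1*.

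Peaks were also counted at marker genes of cell types, in the gene and the 2 kb upstream. These counts cannot check the label of the cells, because 63.8% of all protein-coding genes had a peak in the gene body. The DN markers *Th* (10), *Slc6a3* (3), *Foxa1* (5), *Foxa2* (6), *Lmx1b* (31), *Pitx3* (3) and *Calb1* (2) all had peaks, and some of them had served to choose the cluster. The oligodendroglial markers *Olig2* and *Sox10* had 0 peaks and *Pdgfra* had 2, and the pyramidal neuron markers *Camk2a* and *Wfs1* had 6 and 1. In the gene or within 50 kb, *Camk2a* had 11 peaks and *Wfs1* 21. The median there was 10 for the DN markers and 3 for the oligodendroglial ones. The part of other cell types in the peaks of the immediate early genes was not tested. Immediate early genes are used by many cell types, and the list does not say in how many nuclei, or in which library, a peak was open.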

How the data were processed

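The authors mapped single-nucleus ATAC-seq reads to mm10 with Cell Ranger, removed doublets at the default settings of ArchR, clustered nuclei with ArchR and called reproducible DN peaks on pseudobulk replicates. The deposited list gives the position of 55326 peaks in columns for chromosome, start and end. No peak height, count, ratio or p-value was used, and the depth behind a peak is not in the list, so a region without a peak is one where none was called at this depth. A further filter of the study on the share of nuclei with a peak may or may not have been applied to it. The library of embryonic stem cells was not used here.

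Peaks had 1 width. No neighbouring pair had a start equal to the end before it, whereas each difference from 1 to 10 had 25 to 42 pairs, so starts were read as counted from 1 and peaks as 501 bp, both ends included. The design had assumed starts counted from 0, and that reading became an alternative, chosen after seeing the data.

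Gene bodies came from the comprehensive GENCODE M21 annotation, start sites from its basic set, and sequence from GRCm38.p6, whose chromosomes are those of mm10. Motifs were searched on both strands of each peak. Counting and motif search were checked on simulated data. The genes, the lists and the motifs were chosen with earlier results of these data known, and the CRE core, the second reading of starts, the counts of motifs by gene, the percentiles of the other lists and the coverage of other short genes by basic transcripts were added after the data were seen. Besides the 10 genes, the genes named were those of each list without a promoter peak, the 3 of each list with the most peaks, and genes at whose start site a described distal peak lay. Genes of the lists named for a motif, and genes hosting a peak, were named after their values were seen. The sequence of 1 promoter is not reported here. Comparisons were counts and medians beside those over all features, with no test, because 1 pooled list has no replicates. Python 3.11.15, numpy 2.4.6, pandas 2.3.3, pysam 0.24.0 and matplotlib 3.10.9 were used.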

Additional observations from a re-analysis of the deposited data

How the results depend on the processing

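Of 25 alternatives, 20 left their result within 1.5 times, or 0.5 percentage points for the covered share, and 5 did not. With a window of 25 kb the 10 genes had 82 peaks, 64 of them distal, and with a window of 100 kb they had 219 and 201. The median share of the gene body covered was 6.56% with gene bodies from the basic transcripts, which leave out the outer parts of some genes. All 10 genes kept a promoter peak with the start sites of all transcripts, with a distance of 500 bp and with starts counted from 0, and 8 did when the peak had to overlap a TSS, without *Fosb* and *Egr3*. The 18 peaks with a CArG box or a CRE octamer were 16 over the central 300 bp, 15 within 25 kb and 21 within 100 kb. No paired analysis was possible because both libraries are pooled in 1 list, and leaving out a replicate could not be run for the same reason. No peak has a depth of its own, so absence of a peak cannot be told apart from weak accessibility.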
